A study of Rattus norvegicus with 30 samples.

Results

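Cholesterol is made in the cell from acetyl-CoA through mevalonate and squalene, and 8 genes of that route were followed here in the rat kidney. They are 7 enzymes, Hmgcs1, Idi1, Fdps, Fdft1, Sqle, Lss and Cyp51, and Insig1, which restrains the pathway. They were picked by symbol from the deposited table, in which all 8 were found once among 32545 genes, 22293 of them protein coding. None of the 8 is a lipoprotein receptor, so the uptake genes are described beside them from a separate list. The kidneys came from male Sprague-Dawley rats that ate a diet of 0.4% NaCl (LS) or had been switched to 4.0% NaCl for 14 d (HS14) or 21 d (HS21). RNA was taken from the cortex (Cx) and the outer medulla (OM) of the right kidney, with 5 libraries for each tissue and diet and 30 in all. These rats were separate from the instrumented rats of the study, and their age at sampling is not given in the labels. The question of the study was how a high salt (HS) intake changes the metabolism of the normal kidney. Libraries were made from whole tissue, so fewer cells of a type and less RNA per cell cannot be told apart.

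The pathway starts in the cytosol with HMG-CoA synthase, runs over mevalonate to isoprenoid units, and joins these to squalene, which is then closed into the sterol ring and trimmed to cholesterol. Its genes share a control: when the membrane of the endoplasmic reticulum is low in sterol, SCAP carries the SREBP transcription factors to the Golgi, where they are cut free to enter the nucleus, and INSIG proteins hold SCAP back when sterol is plentiful. Insig1 is itself a target of SREBP, and cells also take up cholesterol from plasma lipoproteins. The kidney makes cholesterol for its own membranes, and its proximal tubule cells also take up lipoproteins and filtered proteins.

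The 250 bases before the start site of 5 of the genes are shown because all 5 had their highest HS14 level in replicate 8 in both tissues. The sequences are from RefSeq on build GRCr8, which is not the build of the counts (Rnor_6.0), and are written 5′ to 3′ on the strand of the gene. Promoters of 6 of the 8 genes were matched by symbol, and those of Sqle and Fdft1 were not analysed here. Capitals mark the letters CCAAT and GGGCGG, read on both strands.
Hmgcs1, chr2:53382054-53382303 (plus strand): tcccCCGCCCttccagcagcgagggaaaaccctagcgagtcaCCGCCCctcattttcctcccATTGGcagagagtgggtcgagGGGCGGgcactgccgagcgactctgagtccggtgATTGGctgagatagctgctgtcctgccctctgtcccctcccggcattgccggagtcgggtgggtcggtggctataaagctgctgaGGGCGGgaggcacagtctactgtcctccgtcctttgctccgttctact
Idi1, chr17:66547525-66547774 (minus strand): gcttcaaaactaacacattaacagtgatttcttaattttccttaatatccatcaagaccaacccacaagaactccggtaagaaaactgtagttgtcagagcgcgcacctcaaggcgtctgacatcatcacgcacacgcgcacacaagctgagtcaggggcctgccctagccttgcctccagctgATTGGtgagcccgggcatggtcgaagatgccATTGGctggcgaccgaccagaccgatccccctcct
Fdps, chr2:176804817-176805066 (minus strand): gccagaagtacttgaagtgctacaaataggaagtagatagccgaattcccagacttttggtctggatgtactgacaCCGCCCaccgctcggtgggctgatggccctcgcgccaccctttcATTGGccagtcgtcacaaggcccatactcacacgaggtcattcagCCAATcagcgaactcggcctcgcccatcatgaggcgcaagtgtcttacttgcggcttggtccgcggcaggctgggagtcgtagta
Cyp51, chr4:30991443-30991692 (plus strand): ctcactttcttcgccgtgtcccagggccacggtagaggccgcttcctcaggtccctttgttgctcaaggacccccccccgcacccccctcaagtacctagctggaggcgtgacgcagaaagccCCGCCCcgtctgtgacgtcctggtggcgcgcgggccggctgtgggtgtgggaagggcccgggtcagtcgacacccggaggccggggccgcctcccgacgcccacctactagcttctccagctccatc
Insig1, chr4:8057770-8058019 (minus strand): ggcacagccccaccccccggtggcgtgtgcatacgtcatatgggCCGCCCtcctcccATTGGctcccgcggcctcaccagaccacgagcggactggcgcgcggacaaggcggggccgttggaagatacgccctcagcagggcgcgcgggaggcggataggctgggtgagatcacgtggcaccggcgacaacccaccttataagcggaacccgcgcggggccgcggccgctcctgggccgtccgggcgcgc

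The letters CCAAT, a box at which NF-Y binds, were found in 5 of the 6 promoters (Hmgcs1, Idi1, Fdps, Lss and Insig1) against 34.0% of the 33469 promoters of the same length. The GC box letters GGGCGG, which Sp1 recognizes, were also found in 5 of the 6 (Hmgcs1, Fdps, Lss, Cyp51 and Insig1), against 30.5% of all promoters. Hmgcs1 held the most, with 2 CCAAT boxes and 4 GC boxes, and Cyp51 held a single GC box. The letters TCACNCCAC, one form of the sterol regulatory element, were in 0 of the 6 windows and in 0.974% of all promoters. These matches describe the letters of one window per gene, and no match shares letters with another. In the build of the counts Insig1 lies on the plus strand at chr4:342302-350515, whereas GRCr8 places it on the minus strand. Idi1 (chr17:57976268-57984036 in Rnor_6.0) overlaps Wdr37 on the other strand, and Fdps holds a small U6 gene in its span. Since the libraries did not keep the strand, reads of Idi1 and Wdr37 in their overlap cannot be told apart. The other 6 genes overlap no gene of the table.

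Counts on genes summed to between 5408126 and 21842843 per library (median 15000262.5). The lowest total was that of replicate 10 of OM HS14, and all others were at 12748841 or more. Replicate 2 of OM LS stood apart, with a proximal tubule marker sum of 20404 CPM (counts scaled to a common library size) where the other OM LS libraries had 3562 to 12246. Replicate 5 of OM LS held the lowest of these sums. Replicate 2 also had the highest OM LS sum for the distal convoluted tubule (371 CPM, group median 29.6). Its sums for the thick ascending limb (10011 CPM) and the collecting duct (540 CPM) were the lowest of OM LS. Replicate 10 of Cx HS14 had a lower proximal tubule sum (13568 CPM, the others 18319 to 18912) and a higher one for the thick ascending limb (2814 CPM, group median 1698). Values without them are given beside some of the results. All 10 proximal tubule markers were detected in each group, although Slc22a7 was under 1 CPM in Cx LS and Cx HS14. Markers of adrenal cortex, a tissue rich in sterol synthesis that lies beside the kidney, summed to 1.4 to 17.1 CPM per library, and Cyp11b2, Mc2r and Nr5a1 were under 1 CPM in every group.

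Levels of different genes can be compared only per length, for which the FPKM values of the deposited table were taken. On the LS diet Fdft1, which joins farnesyl units to squalene, had the highest level in the Cx, 32.3 ± 2.41 FPKM (SD, n = 5). It was followed by Fdps, which makes farnesyl diphosphate, at 26.0 ± 1.04 FPKM and by Insig1 at 22.5 ± 1.39 FPKM. Each of these 3 was separated from its neighbours in the order, with no library overlapping. Hmgcs1 (13.4 ± 1.22 FPKM), Cyp51 (10.7 ± 1.04) and Sqle (9.32 ± 1.07) formed a middle range in which Hmgcs1 overlapped Cyp51 and Cyp51 overlapped Sqle. Idi1 (7.02 ± 0.58 FPKM) and Lss (6.27 ± 0.61) were lowest and overlapped each other. In the OM the order on LS was the same, from Fdft1 at 41.0 ± 11.6 FPKM to Lss at 7.29 FPKM (5.95 to 8.39). There the neighbours overlapped everywhere except between Fdft1 and Fdps and between Hmgcs1 and Cyp51. After 14 d of HS Insig1 stood above Fdps in mean level in both tissues (26.8 against 24.6 FPKM in the Cx, 35.1 against 21.9 FPKM in the OM), with overlapping libraries.

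**Figure D1:**
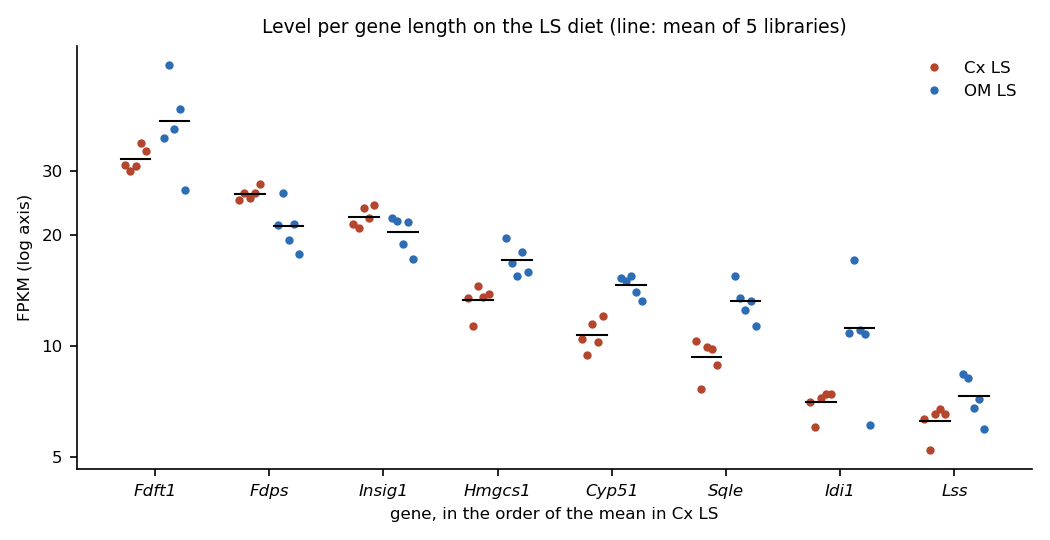
FPKM of the 8 genes on the LS diet on a log axis, with 1 point per library (Cx red, OM blue, 5 each) and a line at the mean. Fdft1 is highest in both tissues and Lss lowest, and the OM libraries of Hmgcs1, Cyp51 and Sqle all lie above those of the Cx.

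The OM and the Cx on the LS diet differed in 5 of the 8 genes. Hmgcs1, Sqle, Cyp51 and Idi1 were raised in the OM and Fdps was lowered there. These 4 and 1 of 8 compare with 21.3% of all 14295 genes tested that were raised in the OM and 19.5% that were lowered. Their median log2 ratio was 0.37, beside 0.03 over all genes tested. With scaling by total counts, which moved the median of all genes to 0.27, the calls over all genes went from 3051 raised and 2794 lowered to 5546 and 1842. The labels number the libraries of both tissues alike without saying that a number marks one rat, and with the replicate number as a block Idi1 (0.62, adjusted P = 0.0894) and Fdps (-0.29, adjusted P = 0.0680) were not called, which left 3 of the 8. With total counts Lss and Fdft1 were called raised as well, Fdps was not called (-0.05) and Insig1 turned from -0.12 to 0.11.

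Cyp51, the lanosterol demethylase, was at 34.9, 31.3, 38.1, 34.0 and 40.3 CPM in the Cx libraries and at 52.0, 49.9, 52.4, 47.4 and 45.7 CPM in the OM. The groups did not overlap, as for 13.2% of all genes with the OM above the Cx, and the log2 ratio was 0.46 ± 0.08 (SE, adjusted P = 0.00105). Sqle, the squalene epoxidase and a rate-limiting step of the late pathway, was at 20.6 to 28.1 CPM in the Cx and at 31.8 to 42.9 CPM in the OM, also without overlap (log2 ratio 0.52 ± 0.10, adjusted P = 0.00265). Hmgcs1, the synthase that opens the pathway, was at 36.1 to 46.5 CPM in the Cx and at 50.5 to 64.1 CPM in the OM (log2 ratio 0.38 ± 0.09, adjusted P = 0.00618).

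Idi1, which interconverts the isoprenoid units, had the largest ratio between the tissues, 0.68 ± 0.22 on the log2 scale (adjusted P = 0.0288), and a wide spread. Its OM libraries were at 31.0, 47.9, 31.3, 30.6 and 17.6 CPM and overlapped those of the Cx, which lay between 16.8 and 20.8 CPM. The highest of them was replicate 2 and the lowest replicate 5, the libraries with the highest and the lowest proximal tubule sum of that group. Fdft1, at 118, 184, 125, 141 and 86.6 CPM in OM LS, was also highest in replicate 2 and lowest in replicate 5. Without replicate 2 of the OM the log2 ratio of Idi1 was 0.47 (adjusted P = 0.0387), and without replicate 5 it was 0.84 (adjusted P = 0.00147). Without any 1 of 7 other libraries Idi1 was no longer called. Fdps was at 75.1 to 83.3 CPM in the Cx and at 65.0, 78.2, 58.9, 65.3 and 55.2 CPM in the OM, where only replicate 2 reached the level of the Cx (log2 ratio -0.28 ± 0.10, adjusted P = 0.0414). Without replicate 2 its ratio was -0.37 (adjusted P = 0.00154), and 7 of the other libraries, when left out in turn, ended the call. Lss (0.23 ± 0.11, adjusted P = 0.109), Fdft1 (0.36 ± 0.17, adjusted P = 0.125) and Insig1 (-0.12 ± 0.09, adjusted P = 0.272) were not called. Without replicate 5 of the OM, Lss (0.30, adjusted P = 0.0312) and Fdft1 (0.48, adjusted P = 0.0155) were called as well. The part of the proximal tubule share in these values was not tested.

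**Figure D2:**
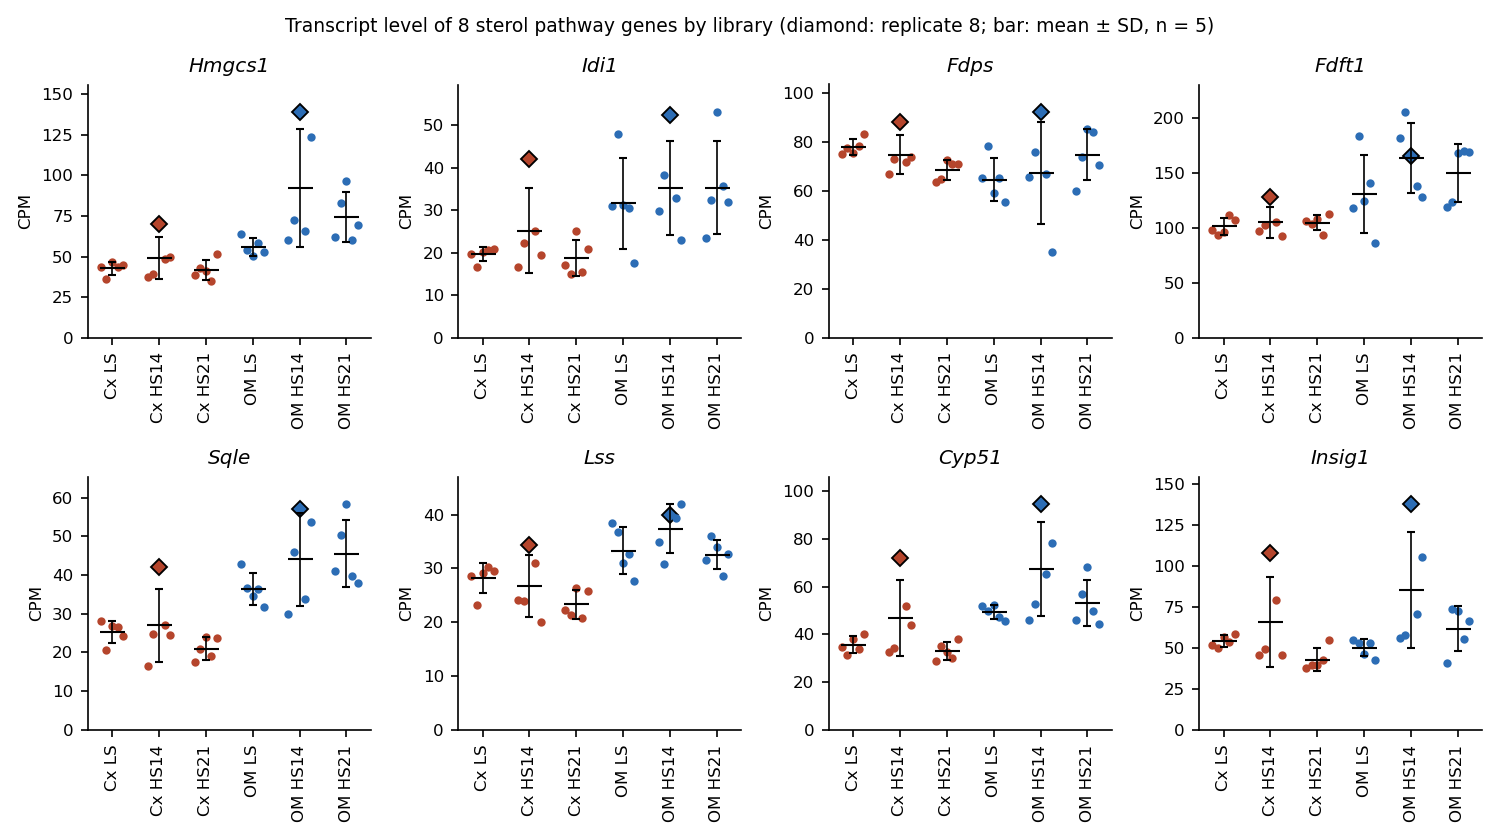
CPM of each gene in the 30 libraries, by tissue and diet (axis from 0), with mean ± SD of 5 libraries as black bars and replicate 8 of HS14 as a diamond. The diamond is the highest Cx HS14 library in all 8 panels, and in OM HS14 it is the highest in 6 panels, with Lss and Fdft1 the exceptions.

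In the Cx after 21 d of HS, 3 of the 8 genes were lowered and 0 raised. They were Insig1, Lss, which closes squalene epoxide to lanosterol, and Fdps. Each fell by a small amount, to 0.783 of the LS level for Insig1, 0.820 for Lss and 0.870 for Fdps. Over all 14299 genes tested, 20.5% were lowered and 18.9% raised, and the 3 of 8 stand beside that background. The median log2 ratio of the 8 genes was -0.17, against 0.00 over all genes tested. Of the 8 ratios 7 lay below 0, of which Hmgcs1 (0.08) and Idi1 (0.04) turned above 0 with scaling by total counts.

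Fdps was at 75.1, 77.6, 75.4, 78.3 and 83.3 CPM on LS and at 63.7, 64.7, 72.6, 70.8 and 70.7 CPM at HS21. It was the only one of the 8 whose libraries did not overlap (log2 ratio -0.20 ± 0.05, adjusted P = 0.0110). Of all genes tested, 13.8% lay with every HS21 library below every LS library. Insig1 was at 52.0, 50.0, 56.7, 53.7 and 58.5 CPM on LS and at 37.7, 39.6, 39.8, 42.5 and 54.9 CPM at HS21. Only replicate 15 of HS21 reached the range of LS, and the log2 ratio was -0.35 ± 0.10 (adjusted P = 0.0137). Lss was at 28.5, 23.3, 29.2, 30.3 and 29.4 CPM on LS and at 22.3, 21.3, 26.4, 20.8 and 25.8 CPM at HS21 (log2 ratio -0.29 ± 0.09, adjusted P = 0.0315). Its groups overlapped through replicate 2 of LS, which was the lowest library of that group for 7 of the 8 genes and for 21.8% of all genes.

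Sqle, at 20.6 to 28.1 CPM on LS and 17.5 to 24.1 CPM at HS21, had a ratio close to that of Lss and was not called (-0.28 ± 0.11, adjusted P = 0.0620). Hmgcs1 (-0.05 ± 0.10), Idi1 (-0.08 ± 0.14), Cyp51 (-0.13 ± 0.09) and Fdft1 (0.03 ± 0.06) were not called, with adjusted P from 0.277 to 0.735. The call of Lss is close to the threshold: without any 1 of 7 libraries its adjusted P was 0.0577 to 0.0870. With replicate 2 of LS left out, Sqle was called (-0.34, adjusted P = 0.0280) beside Insig1, Lss and Fdps. Scaling by total counts in place of the trimmed mean of M-values (TMM) left 0 of the 8 lowered, with log2 ratios of -0.22 for Insig1, -0.16 for Lss and -0.07 for Fdps. That scaling moved the median of all genes from 0.00 to 0.13, and it moved the calls over all genes from 2702 raised and 2936 lowered to 4401 and 1653.

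Transcripts of cell types moved in the same libraries. The summed proximal tubule markers were at 18207 to 20213 CPM in Cx LS and at 11058 to 14447 CPM in Cx HS21. Of these 10 markers 8 were lowered and 1 was raised, with log2 ratios of the 10 from -1.03 to 1.70. The summed general leukocyte markers were at 116 to 167 CPM and at 223 to 664 CPM, and 6 of 6 were raised. The 3 lowered genes lay at smaller ratios than the 8 lowered proximal tubule markers, which ran from -0.45 (Slc34a1) to -1.03 (Slc5a12). The part of these shifts in the fall of Fdps, Lss and Insig1 was not tested.

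After 14 d of HS in the Cx, 0 of the 8 genes were called, 0 also at an unadjusted P under 0.05 and 0 by DESeq2. Of all 14181 genes tested, 1.14% were raised and 1.18% lowered. Ratios ran from -0.09 ± 0.13 (Lss) to 0.38 ± 0.19 (Cyp51), with adjusted P from 0.322 to 0.897. Without replicate 10 of HS14, Lss was at -0.01 and Insig1, at 0.26 with all libraries, was at 0.36. Between HS21 and HS14 in the Cx 7 of the 8 ratios were below 0 and 0 were called by edgeR, with 2 at an unadjusted P under 0.05. These were Insig1 (-0.61 ± 0.23, adjusted P = 0.0926) and Cyp51 (-0.51 ± 0.19, adjusted P = 0.0901). DESeq2 called 1 of them, Insig1, at an adjusted P of 0.0487, and so did edgeR without replicate 10 of HS14 (-0.72, adjusted P = 0.0469). Over all genes DESeq2 called 1801 lowered and 1478 raised. With 1 library left out edgeR called 692 to 2048 of all genes lowered. Without replicate 8 of HS14 the ratios were -0.36 for Insig1 and -0.31 for Cyp51, with adjusted P of 0.199 and 0.179. Over all 14395 genes tested, 6.50% were raised and 9.69% lowered between these groups (935 and 1395 genes, or 2084 and 644 with scaling by total counts). At an unadjusted P under 0.05, 2573 of these 14395 genes had a ratio below 0 and 2257 above 0. The comparisons with LS and this one share libraries, so their values are not independent of each other.

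**Figure D3:**
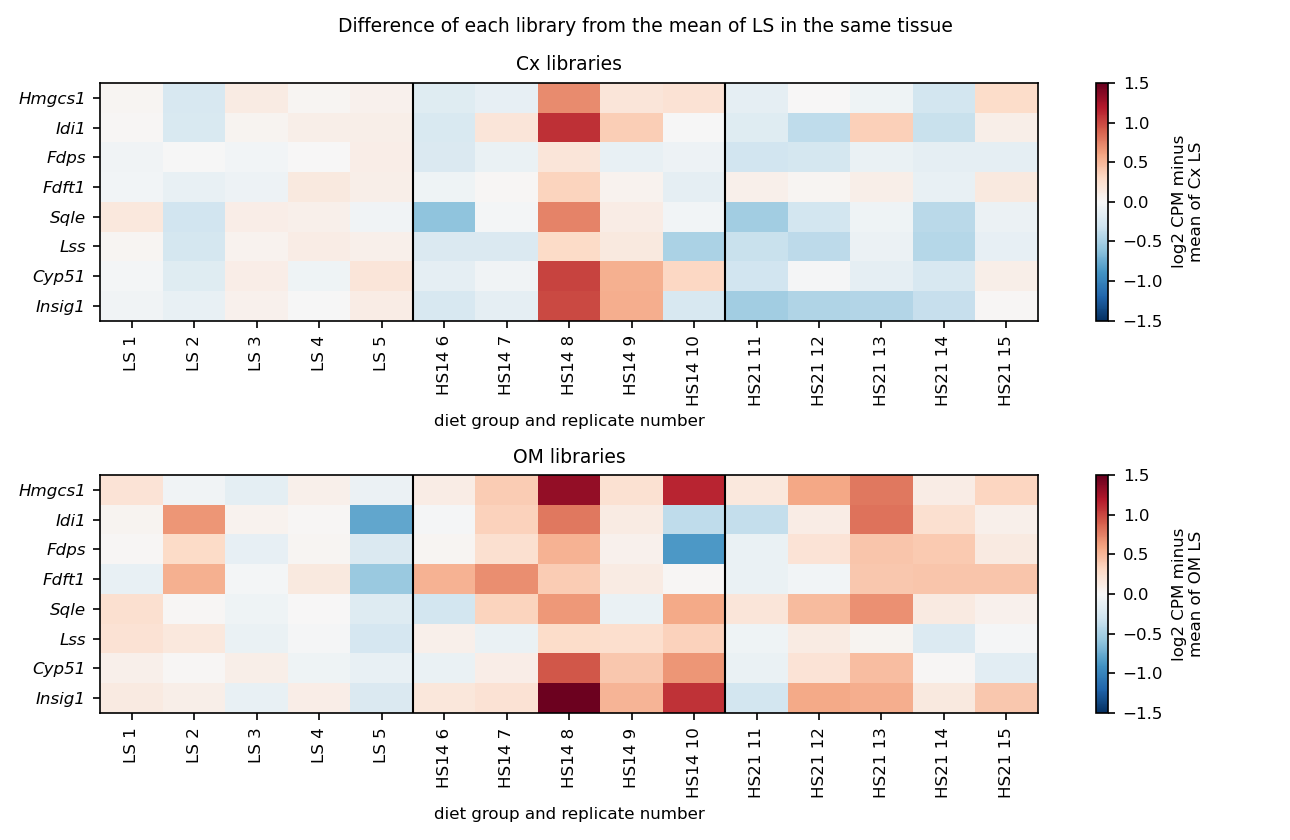
Log2 CPM of each gene (rows) in each library (columns) minus the mean of the LS libraries of the same tissue, on a colour scale from -1.5 to 1.5. Replicate 8 of HS14 is red for all 8 genes in the Cx (0.18 to 1.10) and in the OM (0.27 to 1.47), and the Cx HS21 libraries are mostly pale blue.

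Within HS14, 1 library of each tissue stood above the others for most of the 8 genes. In the Cx, replicate 8 had the highest level of the 5 libraries for 8 of the 8 genes, where it was the highest library for 17.5% of all genes. This library was singled out after its values were seen, and the counts are a description. Hmgcs1 was at 37.7, 39.3, 69.8, 48.5 and 49.5 CPM in replicates 6 to 10. Insig1 was at 45.9, 49.4, 108, 78.9 and 45.6 CPM. In both genes replicate 8 was the highest library. Replicate 9 lay above the LS mean for 7 of the 8 genes, and its Insig1 level was above the LS range of 50.0 to 58.5 CPM. Over the median of the other 4 libraries, replicate 8 was 2.27-fold for Insig1, 2.02-fold for Idi1, 1.83-fold for Cyp51, 1.72-fold for Sqle, 1.59-fold for Hmgcs1, 1.42-fold for Lss, 1.29-fold for Fdft1 and 1.22-fold for Fdps. The 5 genes with the largest folds thus included the regulator and enzymes from the start, the middle and the end of the route.

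Replicate 8 of the OM showed the same for 6 of the 8 genes, against 22.2% of all genes. Hmgcs1 was at 60.0, 72.6, 139, 65.6 and 124 CPM there, and Insig1 at 56.1, 57.6, 138, 70.7 and 105 CPM. In both genes replicate 10, the library with the fewest counts, was second. For Fdps it was the lowest, at 65.6, 75.7, 92.3, 66.7 and 35.1 CPM. Replicate 8 of the OM was not the highest for Lss (40.0 CPM, replicate 10 at 42.0) and Fdft1 (166 CPM, replicate 7 at 206). The labels give the same number to 1 library of each tissue but do not say that the pair came from one rat.

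Further sterol enzymes also peaked in replicate 8 in the Cx. Of 15 such enzymes, 11 had their highest Cx HS14 level there, against 17.5% of all genes. In the OM the count was 5 of 15, against 22.2% of all genes, and replicate 10 was the highest for 5 as well. Among 11 genes of uptake and sterol transport, 2 had their highest Cx HS14 level in replicate 8. Srebf2, which encodes the SREBP that acts on sterol genes, was at 105 CPM in replicate 8 of Cx HS14 against 69.5 to 86.7 CPM in the others. Its partner Scap (103 CPM, the others 88.6 to 109) and Srebf1 (73.0 CPM, the others 59.9 to 118) did not stand out. The depth of the library was 18325870 counts, its proximal tubule sum 18319 CPM and its leukocyte sum 204 CPM, all inside the range of the other Cx HS14 libraries. Its adrenal sum, 13.2 CPM, was the highest of the group, where the others had 8.8 to 12.3 CPM, and its part in these levels was not tested. Replicate 8 of the OM had the lowest proximal tubule sum of its group (6040 CPM, the others 7866 to 11666) and the highest collecting duct sum (1986 CPM), and the part of these was not tested.

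The spread followed the same library in the Cx. There the SD of log2 CPM was larger at HS14 than on LS for 8 of 8 genes, with medians of 0.41 and 0.14, and 64.2% of all genes also had the larger SD at HS14. Without replicate 8 the median SD was 0.25, larger than on LS for 7 of 8. In OM HS14 the median SD was 0.43, close to the 0.44 of all genes. Without replicate 8 the log2 ratio of Cx HS14 to LS was 0.02 for Hmgcs1, 0.01 for Insig1, 0.08 for Idi1 and 0.18 for Cyp51. It was -0.14 for Sqle and -0.05 for Fdft1, both with the sign turned.

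The levels of the 8 genes ran together across the Cx libraries. Over the 15 Cx libraries all 28 pairs had a Pearson correlation of log2 CPM above 0, with a median of 0.75, from 0.38 (Fdft1 with Fdps) to 0.92 (Cyp51 with Hmgcs1). Without replicate 8 of HS14 the median was 0.53, the lowest -0.01 and the highest 0.80, for the same pairs. Over the 15 OM libraries the median was 0.43, with 26 of 28 above 0, and without replicate 8 of HS14 it was 0.26, with 22 of 28 above 0. Hmgcs1 and Insig1 were the most alike there (0.93), and Fdps and Lss the least (-0.16). Libraries share depth, scaling and tissue make-up, and the correlations describe these libraries only.

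In the OM, 0 of the 8 genes were called at HS14 or at HS21. At HS14, 8 of the 8 ratios were above 0, with a median of 0.29 beside -0.02 over all genes tested. Insig1 was the largest at 0.77 ± 0.26 (adjusted P = 0.611), with every HS14 library above the LS range of 42.9 to 54.8 CPM, as in 1.05% of all genes. Hmgcs1 followed at 0.72 ± 0.25 (adjusted P = 0.648) and Cyp51 at 0.44 ± 0.19 (adjusted P = 0.852). These 3 had an unadjusted P under 0.05, and DESeq2 called 0 of the 8. The OM gave few calls at all at HS14, 1 raised (0.00694%) and 0 lowered (0%) of 14417 genes, and DESeq2 called 90 and 19. Without the shallow replicate 10 the ratios were 0.66 for Insig1, 0.57 for Hmgcs1 and 0.36 for Cyp51. Without replicate 8 they were 0.54, 0.53 and 0.30, and Idi1 (-0.04) and Fdps (-0.09) lay below 0. Without replicate 5 of OM LS, Idi1 (-0.01) and Fdps (-0.02) also lay below 0.

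At HS21 in the OM, ratios ran from -0.05 ± 0.11 (Lss) to 0.38 ± 0.14 (Hmgcs1, adjusted P = 0.283). Hmgcs1 was at 64.1, 54.0, 50.5, 58.6 and 52.7 CPM on LS and at 62.1, 83.1, 96.4, 60.3 and 69.5 CPM at HS21, with 3 of 5 HS21 libraries above every LS library. Sqle had a ratio of 0.30 ± 0.13 (adjusted P = 0.449) and Insig1 of 0.28 ± 0.16 (adjusted P = 0.588). The ratio of Idi1, 0.13, was 0.33 without replicate 2 of OM LS and -0.03 without replicate 5, and that of Fdft1, 0.17, was 0.32 and 0.05. Of all 14555 genes, 0.639% were raised and 0.131% lowered. At an unadjusted P under 0.05 there was 1 of the 8, Hmgcs1, and DESeq2 called 0.

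**Figure D4:**
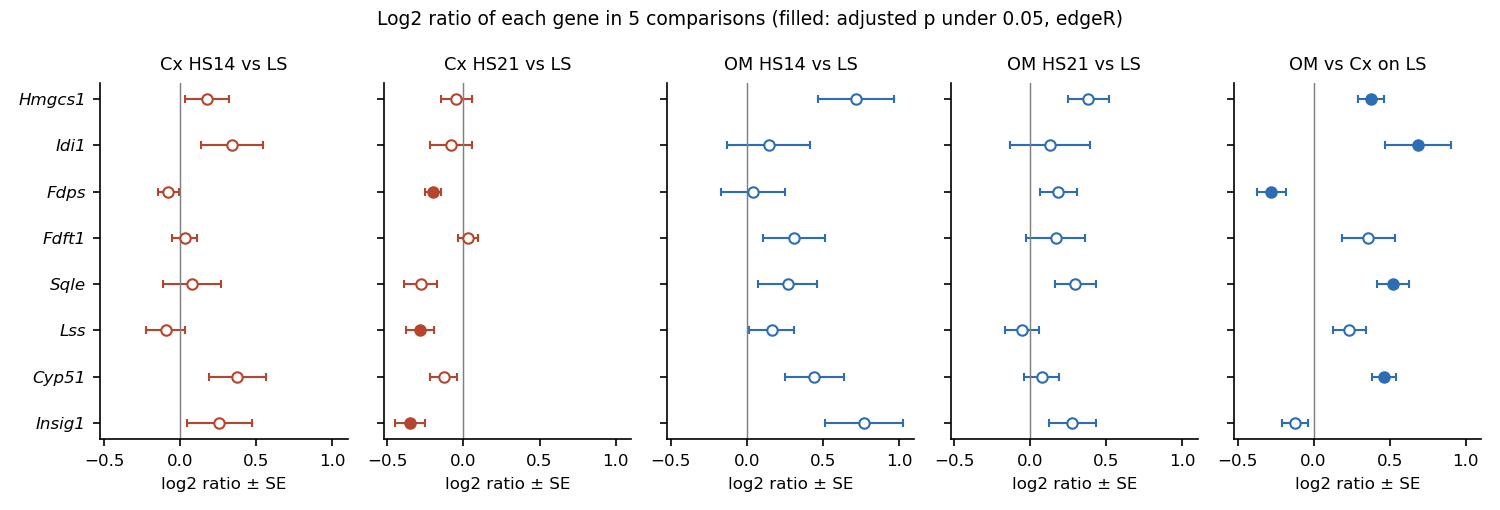
Log2 ratio ± SE of each gene in 4 diet comparisons and between the tissues on LS, from edgeR, with filled points for an adjusted P under 0.05. Filled points are Fdps, Lss and Insig1 in Cx HS21, and Hmgcs1, Idi1, Fdps, Sqle and Cyp51 between the tissues.

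An interaction of tissue and diet was fitted to ask if Cx and OM responded alike, and a value above 0 there means that the ratio of HS to LS was higher in the OM. At HS21 all 8 values were above 0, with a median of 0.31 against -0.06 over all genes, and 0 of the 8 were called by edgeR. The largest were Insig1 (0.63 ± 0.19, adjusted P = 0.130), Sqle (0.58 ± 0.18, adjusted P = 0.139), Hmgcs1 (0.43 ± 0.18, adjusted P = 0.254) and Fdps (0.39 ± 0.14, adjusted P = 0.185). These 4 had an unadjusted P under 0.05, whereas the shares of all genes given below for HS21 are at an adjusted P. DESeq2 called 1, Insig1, at an adjusted P of 0.0484, and over all genes it called 350 positive and 206 negative. Without replicate 2 of OM LS edgeR called 2, Insig1 (0.67, adjusted P = 0.0453) and Fdps (0.49, adjusted P = 0.0195). Without replicate 11 of OM HS21 it called Insig1 (0.75, adjusted P = 0.0292). With 1 library left out, its calls over all genes ran from 34 to 729 positive and from 4 to 546 negative. Of all 15194 genes, 0.448% had a called positive and 0.217% a called negative interaction (68 and 33 genes, or 57 and 54 with scaling by total counts). At HS14 the values ran from -0.23 (Idi1) to 0.51 (Hmgcs1), and 0 of the 8 and 0 (0%) of all 15091 genes were called by edgeR, with 281 positive and 278 negative at an unadjusted P under 0.05.

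In the rest of the sterol pathway in the Cx at HS21, 7 of 15 further enzymes were lowered and 2 raised, with a median log2 ratio of -0.25, where 20.5% of all genes tested were lowered and 18.9% raised. The 3 largest falls were in Hsd17b7, a ketosteroid reductase of the late route (-0.93 ± 0.20, adjusted P = 0.00321), Dhcr7, which reduces 7-dehydrocholesterol (-0.79 ± 0.19, adjusted P = 0.00593), and Acat2, which condenses acetyl-CoA at the entry (-0.71 ± 0.11, adjusted P = 0.000520). The 2 raised enzymes, named after their values were seen, were the phosphomevalonate kinase Pmvk (0.65) and the mevalonate kinase Mvk (0.41).

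Of 11 genes of uptake and sterol transport, 5 were raised and 3 lowered in the Cx at HS21, where 18.9% of all genes were raised and 20.5% lowered. Lrp8, a lipoprotein receptor, was raised from a low level (0.94 ± 0.19, adjusted P = 0.00240). The VLDL receptor gene Vldlr (-0.67 ± 0.10, adjusted P = 0.000321), the lysosomal lipase Lipa (-0.51 ± 0.08, adjusted P = 0.000470) and the sterol carrier Stard4 (-0.73 ± 0.10, adjusted P = 0.000296) were lowered, each without overlap of the libraries.

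**Figure D5:**
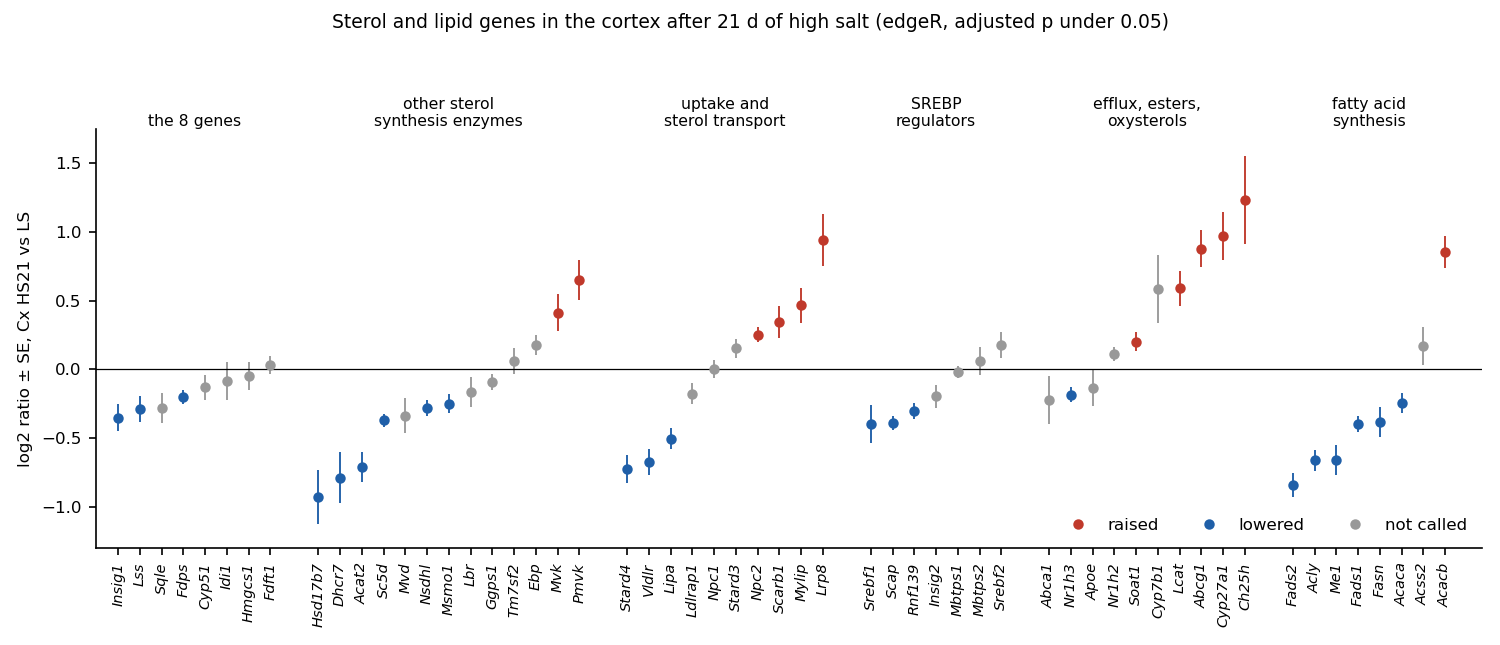
Log2 ratio ± SE of the 8 genes and of the reported genes of 5 further lists in Cx HS21 against LS, sorted within each list, with raised genes in red, lowered in blue and those not called in grey. The lists of sterol enzymes, regulators and fatty acid synthesis hold more lowered than raised genes (lowered 6 of 13, 3 of 7 and 6 of 8 plotted), and those of uptake and efflux hold 4 and 5 raised genes.

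Of 8 regulators of SREBP, 4 were lowered and 0 raised at HS21 in the Cx, against 20.5% and 18.9% of all genes. Scap was at 119, 131, 132, 131 and 130 CPM on LS and at 95.1, 104, 98.6, 93.3 and 104 CPM at HS21 (log2 ratio -0.39 ± 0.05, adjusted P = 0.000178). It was already lowered at HS14 (-0.35 ± 0.06, adjusted P = 0.0131), where it was the one regulator called. Rnf139, a ubiquitin ligase of the endoplasmic reticulum, fell by 0.30 on the log2 scale (adjusted P = 0.00252). Srebf1, which drives fatty acid synthesis, was at -0.40 ± 0.14 (adjusted P = 0.0382) and lost the call without any 1 of 5 libraries. Srebf2 (0.18 ± 0.10, adjusted P = 0.171) and Insig2 (-0.20 ± 0.08, adjusted P = 0.0748) were not called. With scaling by total counts Srebf2 was called raised (0.31, adjusted P = 0.0267) and Srebf1 was no longer called (-0.27, adjusted P = 0.138). On LS, Srebf2 was higher in the OM than in the Cx (0.50 ± 0.11, adjusted P = 0.00405) and Scap lower (-0.56 ± 0.06, adjusted P = 6.37e-05).

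Of 10 genes of sterol efflux, esterification and oxysterol formation, 5 were raised and 1 was lowered in the Cx at HS21, against 18.9% and 20.5% of all genes. Ch25h, which makes 25-hydroxycholesterol (1.23 ± 0.32, adjusted P = 0.0101), Cyp27a1, which makes 27-hydroxycholesterol (0.97 ± 0.18, adjusted P = 0.00134), the exporter Abcg1 (0.88 ± 0.13, adjusted P = 0.000458) and Lcat (0.59 ± 0.13, adjusted P = 0.00330) were raised. Ch25h and Abcg1 are also abundant in macrophages, whose 9 markers summed to 125 to 166 CPM in Cx LS and 224 to 778 CPM in Cx HS21, and the part of that rise was not tested. Of 8 genes of fatty acid synthesis, 6 were lowered against 20.5% of all genes, among them Fads2 (-0.84 ± 0.09), Acly (-0.66 ± 0.08) and Me1 (-0.66 ± 0.11), and Acacb was raised (0.85 ± 0.12), with adjusted P of at most 0.000781 for these 4. In the OM 0 genes of these 5 lists were called at HS14 or HS21. At HS14, 3 sterol enzymes, 2 genes of fatty acid synthesis, 1 of uptake and 1 regulator had a ratio above 0 at an unadjusted P under 0.05, as did 617 of all 14417 genes. At HS21 these were 1 sterol enzyme, 2 genes of uptake and 1 of efflux, and 1012 of all 14555 genes.

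For 13445 genes whose mean reached 1 CPM in both tissues, the likeness of log2 CPM to the mean of the 8 genes was ranked by the lower of the 2 correlations over 15 Cx and 15 OM libraries. Outside all lists, Ephx2, a soluble epoxide hydrolase (0.73), Tmx2 (0.64), Pkm, pyruvate kinase (0.64), and Osbpl1a, an oxysterol-binding protein (0.61), were among the 5 most alike. Of the listed genes Msmo1, a sterol demethylase (0.87) and Nsdhl (0.73) reached similar values. Of the 4 unlisted genes named, 3 were lowered in the Cx at HS21, where 20.5% of all genes tested were lowered. Ephx2 fell by the most of these 3 (-0.48 ± 0.14, adjusted P = 0.0210), and Pkm was not called (-0.59 ± 0.36, adjusted P = 0.214). The study itself reported Pkm as increased by HS in the Cx and, by qPCR, in isolated proximal tubules. The Pkm value here is that of the row found by likeness, and other rows of that symbol were not looked for. The 4 genes were picked by their likeness over these same libraries, so a fall shared with the 8 genes is in part built into the choice.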

How the data were processed

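Poly(A) RNA of 30 libraries was sequenced, 5 for each tissue (Cx, OM) and diet (LS, HS14, HS21). The authors aligned reads to Rnor_6.0 and deposited 1 table of counts per gene (per the submitters' processing notes: HISAT2 2.0.5, StringTie 1.3.3b, featureCounts 1.5.0-p3), with FPKM values that the authors computed from these counts and with gene lengths. Columns of the authors' own comparisons (log2 fold changes and p-values) were not used. Groups were taken from the labels. Here counts were tested per comparison with edgeR 4.0.16 (R 4.3.3): low genes removed with filterByExpr, TMM scaling, the quasi-likelihood test, and Benjamini-Hochberg adjustment over all genes tested, with calls at an adjusted P under 0.05. CPM are counts over the TMM-scaled library size, with a prior count of 2 on the log2 scale. The code was tested on simulated counts. Each P sets a difference between groups against the spread between the libraries of a group. Libraries carry separate labels, and those of the 2 tissues with the same number were treated as separate in the main fits. Count totals, 5408126 to 21842843, set the precision. Alternatives were DESeq2 1.42.0, its size factors, total counts, no filter, a replicate block and leaving out each library.

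The 8 genes and the other lists were chosen with earlier results of these data known. Genes named beside the 8 were Srebf2 and Insig2, up to 4 called genes per list with the largest log2 ratio in Cx HS21, and the 5 unlisted genes most like the mean of the 8. Some genes that this rule names are not reported here, although counts over lists include them. Of 55 other listed genes 54 were found once, and of 59 marker genes 58 were found.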

Additional observations from a re-analysis of the deposited data

Results flagged for a closer look

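In Cx LS replicate 2, 3 of the 8 genes lay apart from the other 4 libraries of the group, when 48 groups of 5 libraries (8 genes in 6 groups) were examined with Dixon's test. The test was made on log2 CPM, and its ratios hold for that scale. There the gap to the nearest library was 0.735 of the range of the group for Hmgcs1 (36.1 CPM). It was 0.770 for Lss (23.3 CPM) and 0.755 for Idi1 (16.8 CPM), where the critical value is 0.71. Chance alone marks about 1 in 20 groups. The 3 values come from 1 library and are not independent. Without this library, Sqle was called in Cx HS21 (-0.34) beside Lss (-0.35), Fdps (-0.20) and Insig1 (-0.38).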

How the results depend on the processing

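Of 280 values of the 64 log2 ratios of the 8 genes under the 5 other settings, 266 kept their sign and their side of the threshold, 7 lost the call, 4 gained one and 3 changed sign. With 1 library left out, 744 of 800 values did so, 21 lost the call, 9 gained one and 26 changed sign. Scaling by total counts left 0 of the 8 lowered in Cx HS21 and turned Hmgcs1 to 0.081 and Idi1 to 0.045. Between the tissues on LS, total counts, no filter and the replicate block each left 0 lowered, and total counts turned Insig1 to 0.11. DESeq2 called 1 lowered in Cx HS21 against HS14 and 1 raised in the tissue by diet test at HS21.

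Leaving out 1 library gave 0 to 1 lowered in Cx HS21 against HS14, 0 to 1 lowered between the tissues, and 0 to 2 raised in the tissue by diet test at HS21. Over all genes that last count ran from 34 to 729. Log2 ratios that changed sign when 1 library was left out ran, in Cx HS14, from -0.048 to 0.066 (Fdft1) and -0.14 to 0.21 (Sqle). In Cx HS21 they ran from -0.12 to 0.021 (Hmgcs1) and -0.22 to 0.0021 (Idi1), and in Cx HS21 against HS14 from -0.046 to 0.075 (Fdft1). In OM HS14 they ran from -0.094 to 0.20 (Fdps) and -0.037 to 0.34 (Idi1), and in OM HS21 from -0.021 to 0.13 (Cyp51), -0.054 to 0.33 (Idi1) and -0.12 to 0.0028 (Lss). In the tissue by diet test at HS14 they ran from -0.078 to 0.24 (Cyp51), -0.0026 to 0.27 (Fdps) and -0.36 to 0.036 (Idi1). The cause of these changes was not tested.

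DESeq2 called more genes than edgeR in Cx HS14 (492 raised and 429 lowered against 162 and 168) and OM HS21 (535 and 166 against 93 and 19). The same held in OM HS14 (90 and 19 against 1 and 0) and Cx HS21 against HS14 (1478 and 1801 against 935 and 1395). DESeq2 also called more in the tissue by diet test at HS21 (350 and 206 against 68 and 33). It called 7 and 2 at HS14 in that test, against 0 and 0. Total counts gave 35 and 9 in OM HS21.

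The labels number 1 library of each tissue alike. Same-numbered libraries deviated together with r from -0.11 to 0.56, over 0.1 in 10 of 15 pairs and from 0.27 to 0.56 at HS21. The best correlation was with the library of the same number for 11 Cx and 10 OM libraries. Since the labels do not say that a number marks one rat, the main fits did not pair the samples. If the numbers do mark rats, those fits leave out that pairing. With the replicate block between the tissues, Idi1 was at 0.62 (adjusted P = 0.0894) and Fdps at -0.29 (adjusted P = 0.0680). The fewest counts were 5408126, in replicate 10 of OM HS14.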
